A study of Mus musculus with 9 samples.

Results

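The glutathione S-transferases (GST), UDP-glucuronosyltransferases (UGT) and sulfotransferases (SULT) of mouse lung were followed across exposures to IQOS aerosol, cigarette smoke (CS) and fresh air. Members were all genes whose symbol starts with Gsta, Gstk, Gstm, Gsto, Gstp, Gstt, Gstz, Mgst, Ugt or Sult followed by a digit, where the symbol came from matching a probe's accession to RefSeq. The arrays held 60 such genes of 22911 genes with a symbol, namely 24 GST, 15 UGT and 21 SULT genes. Of these, 36 were bright enough to be tested, 23 of them GST, 5 UGT and 8 SULT genes, against 16593 tested genes in all.

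Whole-lung RNA of male C57BL/6J mice was measured on one-colour Agilent arrays. The mice were 12 weeks old when exposure began and breathed, for 6 months, aerosol of the heated tobacco product IQOS at 3.5%, smoke of cigarettes at 3.5%, or fresh air. Each exposure had 3 arrays. Nothing in the labels ties the arrays of a group to separate animals, so p-values speak only for the spread among these samples, which may be technical.

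These enzymes carry out the second phase of the handling of foreign compounds, in which a reactive or lipid-soluble molecule is joined to a polar group and so made easier to export. GSTs attach glutathione to electrophiles such as smoke aldehydes and epoxides, UGTs attach glucuronic acid taken from UDP-glucuronate, and SULTs attach sulfate taken from the donor PAPS. In lung they are found mainly in airway epithelium, and several of their genes are known targets of the transcription factor NRF2, which binds antioxidant response elements, or of the aryl hydrocarbon receptor (AHR), which binds xenobiotic response elements.

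Signals are given as multiples of each array's 75th percentile, changes as log2 differences of the scaled signal with their standard error, and a gene was called where limma's adjusted p was under 0.05. The 75th percentile lay between 973.3 and 1098 intensity units, between 64.3% and 68.8% of probes were well above background on an array, and 0 spots were saturated. Different probes hybridise with different strength, so levels are compared between groups and never between genes. Whether the arrays of groups overlap is told as description only, since the share of all tested genes without overlap is not given here. The CS and air arrays shared 1 slide and the IQOS arrays filled another, so that in every comparison with IQOS lungs the slide and the exposure cannot be told apart. The lung markers Sftpc, Scgb1a1 and Ager summed to 1302 to 1424 in IQOS lungs, 1395 to 1513 in CS lungs and 1389 to 1431 in air lungs.

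Of the 36 tested members, 7 were called higher and 2 lower in CS than in air lungs. Over all tested genes 5.6% were called higher and 6.12% lower in CS than in air lungs (11.7% in all), and the median change was 0.09 for the members and -0.02 for all tested genes. Against the same air arrays, 1 member was higher and 0 lower in IQOS lungs, where 1.99% of all genes were called higher and 0.886% lower (2.87% in all). At an unadjusted p under 0.05, 6 members differed between IQOS and air lungs, and 16 between CS and air lungs. The share of all tested genes at this unadjusted threshold is not given here. This count and later counts at that threshold therefore cannot be set against an array-wide share. Set directly against CS, IQOS lungs had 4 members higher and 8 lower, with 4.94% of all genes called higher and 5.18% lower (10.1% in all). In whole lung a change in the number of cells of a type and a change in RNA per cell cannot be told apart.

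These counts moved with single arrays. For CS against air, the 7 higher members became 2 without air replicate 1 or CS replicate 2, 3 without air replicate 2, and 4 without air replicate 3 or CS replicate 3. The 2 lower members became 1 without CS replicate 2 or 3, air replicate 1 or 3 or any 1 IQOS replicate. For IQOS against air, the 1 higher member was kept only without CS replicate 1. For IQOS against CS, the 4 higher members became 0 without air replicate 1, CS replicate 2 or IQOS replicate 2 or 3 and 1 without air replicate 3, CS replicate 3 or IQOS replicate 1. The 8 lower members became 2 without CS replicate 2 or IQOS replicate 2, 3 without IQOS replicate 1, 4 without CS replicate 3 and 5 without air replicate 1.

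By class, the calls for CS against air were upward among GST and UGT genes and downward among SULT genes, and the difference between classes was not tested. For CS against air, 4 of 23 GST genes were higher and 0 lower, 3 of 5 UGT genes were higher and 0 lower, and 0 of 8 SULT genes were higher and 2 lower. Called or not, the changes were mixed within each class. For CS against air, 8 of 23 GST and 2 of 5 UGT genes were below 0, and 5 of 8 SULT genes were above 0 (SULT median 0.05). For IQOS against air, 0 of 23 GST and 0 of 5 UGT genes were called and 1 of 8 SULT genes was higher, with 3 GST, 1 UGT and 2 SULT genes at an unadjusted p under 0.05. For IQOS against CS, 2 GST genes were higher and 6 lower, 1 UGT gene was lower, and 2 SULT genes were higher and 1 lower. The plot of changes by family shows each tested member with its interval.

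**Figure D1:**
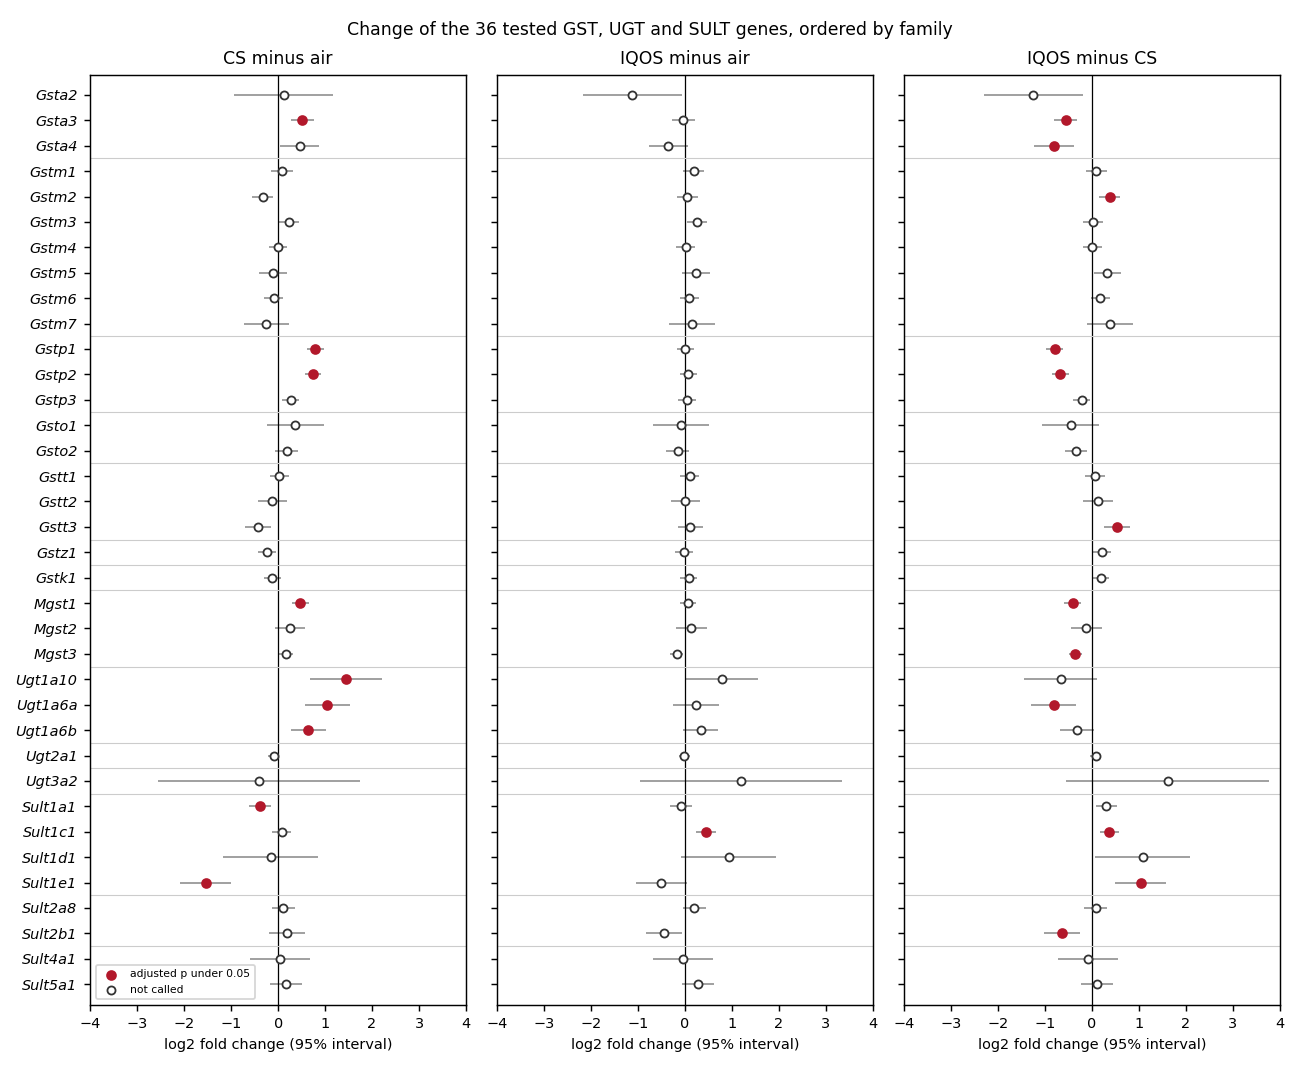
Log2 fold change of the 36 tested GST, UGT and SULT genes (rows, grouped by family) for CS against air, IQOS against air and IQOS against CS. Points are limma estimates from 3 arrays per group and lines their 95% intervals; filled points passed an adjusted p of 0.05, which 9, 1 and 12 members did in the 3 panels.

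Gstp1 and Gstp2 encode the pi-class enzymes, the cytosolic GSTs best known from airway epithelium, and lie side by side on chromosome 19 (GRCm38.p6, chr19:4035411-4037912 and chr19:4040288-4042221, minus strand). Their promoter windows are shown because these genes had the 2 smallest p-values among the members raised by CS, and those of Gsta3 and Mgst1 because both also rose and hold the antioxidant response element core, which was in 4 of 64 member windows. Each window runs from 250 bases before to 50 bases after the annotated start in RefSeq (GRCm38.p6) and is printed 5′ to 3′ on the gene's strand, at chr19:4037863-4038162 (minus) for Gstp1, chr19:4042172-4042471 (minus) for Gstp2, chr1:21240335-21240634 (plus) for Gsta3 and chr6:138140277-138140576 (plus) for Mgst1. Capitals mark the core of the antioxidant response element (TGACNNNGC), the core of the xenobiotic response element (GCGTG) and the core of the AP-1 site (TGAGTCA), each searched on both strands, where TGACNNNGC and the reverse strand of TGAGTCA can overlap.
Gstp1: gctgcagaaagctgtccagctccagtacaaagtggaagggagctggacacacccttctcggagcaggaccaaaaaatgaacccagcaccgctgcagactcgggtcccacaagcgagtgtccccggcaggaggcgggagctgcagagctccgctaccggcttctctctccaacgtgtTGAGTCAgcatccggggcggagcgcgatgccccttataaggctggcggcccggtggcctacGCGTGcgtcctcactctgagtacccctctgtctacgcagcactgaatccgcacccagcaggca
Gstp2: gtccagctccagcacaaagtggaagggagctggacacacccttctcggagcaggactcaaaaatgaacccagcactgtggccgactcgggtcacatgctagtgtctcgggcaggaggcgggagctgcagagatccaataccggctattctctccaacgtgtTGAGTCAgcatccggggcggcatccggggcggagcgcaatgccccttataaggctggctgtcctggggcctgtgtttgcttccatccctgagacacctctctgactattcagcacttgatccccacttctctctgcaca
Gsta3: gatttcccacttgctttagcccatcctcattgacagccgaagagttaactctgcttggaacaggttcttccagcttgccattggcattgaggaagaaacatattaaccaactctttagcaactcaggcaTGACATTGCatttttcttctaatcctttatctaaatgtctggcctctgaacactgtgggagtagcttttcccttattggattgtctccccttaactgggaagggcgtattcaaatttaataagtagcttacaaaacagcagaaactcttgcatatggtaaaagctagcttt
Mgst1: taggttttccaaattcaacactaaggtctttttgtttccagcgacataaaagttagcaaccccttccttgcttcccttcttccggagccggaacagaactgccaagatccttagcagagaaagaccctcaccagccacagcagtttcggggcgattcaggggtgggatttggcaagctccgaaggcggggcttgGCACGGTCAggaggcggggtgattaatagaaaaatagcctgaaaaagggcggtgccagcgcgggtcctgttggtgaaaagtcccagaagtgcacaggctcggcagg
The Gstp1 and Gstp2 windows were identical at 243 of 282 aligned bases (86.2%) and share TGAGTCA, at position -74 in Gstp1 and -89 in Gstp2, whereas GCGTG stood in Gstp1 alone of the pair, at position -13. In both windows gc follows TGAGTCA, which differs from TGACNNNGC only by G in place of C. No other form of the antioxidant response element core was searched, so these windows are not shown to lack the element. TGACNNNGC began at position -121 in Gsta3, and on the opposite strand at position -56 in Mgst1. It also stood in windows of Gstm5 and Gstm7, both named after their values were seen. Their changes for CS against air were -0.10 and -0.25, neither called (adjusted p = 0.638 and 0.473). The motif TGAGTCA was searched after the windows had been seen. Of the other members called higher for CS against air, Ugt1a10 and Ugt1a6a had windows with none of these motifs. Ugt1a6b had no window. A further window of Mgst1, at another annotated start, also held none of them. Whether any of these motifs bears on the change with CS was not tested. Over 64 windows of 52 members, TGACNNNGC was in 6.25%, GCGTG in 18.8% and TGAGTCA in 12.5%, against 12.4%, 32.4% and 5.20% of all 32851 windows.

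Gstp1 and Gstp2 rose with CS and were not called for IQOS against air. Gstp1 had scaled signals of 4.46, 4.81 and 4.75 in IQOS lungs, 7.24, 8.68 and 8.27 in CS lungs and 4.63, 4.5 and 4.79 in air lungs. All CS arrays lay above all IQOS and air arrays, which overlapped each other. The change was 0.79 ± 0.08 for CS against air (1.73-fold, adjusted p = 0.0036), 0.01 ± 0.08 for IQOS against air (95% interval -0.17 to 0.19, adjusted p = 0.958) and -0.78 ± 0.08 for IQOS against CS (adjusted p = 0.00273). In the same lungs, of 5 alveolar macrophage markers 4 were higher and 0 lower in CS than in air lungs and 4 lower in IQOS than in CS lungs, and their summed signal was 101 to 128 in IQOS lungs, 206 to 291 in CS lungs and 88.8 to 103 in air lungs. The part of these cells in the change of the members was not tested.

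Gstp2 had 59.7, 70.3 and 71.5 in IQOS lungs, 103, 110.1 and 106 in CS lungs and 64, 63.3 and 63.6 in air lungs. As for Gstp1, the CS arrays stood apart from the other 6. Its change was 0.74 ± 0.08 for CS against air (1.68-fold, adjusted p = 0.00408), 0.07 ± 0.08 for IQOS against air (interval -0.10 to 0.25, adjusted p = 0.618) and -0.67 ± 0.08 for IQOS against CS (adjusted p = 0.0041). The probe sequences were not used here, so how far a probe of one pi-class gene also takes up RNA of the other was not tested. The remaining pi-class gene, Gstp3, named after its values were seen, had 0.223, 0.234 and 0.244 in IQOS lungs, 0.292, 0.276 and 0.248 in CS lungs and 0.228, 0.212 and 0.238 in air lungs. Its CS arrays were above its air arrays without overlap, but the change of 0.27 ± 0.08 was not called (adjusted p = 0.0743).

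Of the 3 alpha-class genes, Gsta3 rose with CS. This enzyme is known in mice for conjugating the epoxide of aflatoxin. Its signals were 51.1, 57.2 and 64.6 in IQOS lungs, 75.9, 83.3 and 94.7 in CS lungs and 60.7, 58.5 and 57.5 in air lungs. The CS arrays exceeded every IQOS and air array, by 0.52 ± 0.11 over air (1.43-fold, adjusted p = 0.0265). IQOS and air lungs overlapped (-0.04 ± 0.11, interval -0.28 to 0.21), and IQOS lungs were lower than CS lungs (-0.55 ± 0.11, adjusted p = 0.0213). A second Gsta3 probe gave 0.50 for CS against air (adjusted p = 0.0304) and -0.62 for IQOS against CS (adjusted p = 0.0156).

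Gsta4, which conjugates aldehydes released by lipid peroxidation, was called only between the exposed groups. Its signals were 1.72, 2.2 and 2.46 in IQOS lungs, 3.18, 4.2 and 3.73 in CS lungs and 2.73, 2.19 and 3.23 in air lungs. IQOS and CS arrays did not overlap, and IQOS lungs were lower, at -0.81 ± 0.18 against CS (adjusted p = 0.0347). Air lungs overlapped both, with changes of 0.46 ± 0.18 for CS (adjusted p = 0.149) and -0.35 ± 0.18 for IQOS (adjusted p = 0.311). Gsta2, named after its values were seen, had the largest standard error of the tested GST genes, with 1.66, 1.94 and 3.62 in IQOS lungs, 3.79, 6.47 and 6.27 in CS lungs and 6.36, 2.55 and 7.4 in air lungs. Its changes of 0.12 ± 0.46, -1.12 ± 0.46 and -1.24 ± 0.46 for CS against air, IQOS against air and IQOS against CS were not called (adjusted p = 0.891, 0.204 and 0.124).

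The microsomal GSTs sit in membranes and also reduce lipid peroxides. Mgst1 had 48.5, 51.6 and 54.2 in IQOS lungs, 69.6, 72.4 and 62.4 in CS lungs and 49.6, 46.8 and 51 in air lungs. CS arrays were above all others, with a change of 0.47 ± 0.08 over air (1.38-fold, adjusted p = 0.0141), 0.06 ± 0.08 for IQOS against air (interval -0.11 to 0.24) and -0.40 ± 0.08 for IQOS against CS (adjusted p = 0.0208). A second Mgst1 probe gave 0.48 for CS against air (adjusted p = 0.0328) and -0.34 for IQOS against CS, which was not called (adjusted p = 0.0833). Mgst3 had 2.68, 2.61 and 2.56 in IQOS lungs, 3.4, 3.43 and 3.18 in CS lungs and 2.8, 2.97 and 3.11 in air lungs. IQOS arrays were the lowest and CS arrays the highest, with no overlap between any 2 groups, and IQOS was at -0.35 ± 0.06 against CS (adjusted p = 0.0166), while the changes against air, 0.17 ± 0.06 for CS and -0.18 ± 0.06 for IQOS, were not called (adjusted p = 0.116 and 0.153).

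The 7 mu-class genes, clustered on chromosome 3 (chr3:107895854-108045179), showed no call against air in either exposure. Their changes ran from -0.33 to 0.23 for CS against air, with 3 of 7 above 0, and from 0.02 to 0.26 for IQOS against air, with 7 of 7 above 0. Of all 36 tested members, 23 were above 0 for CS and 24 for IQOS against air. The share of all tested genes above 0 is not given here. These counts of direction were not tested, and for IQOS the slide cannot be told apart from the exposure. How far a probe of one mu-class gene also takes up RNA of another was not tested. Gstm2 alone was called between the exposures. It had 38.2, 39.7 and 41.5 in IQOS lungs, 33.2, 31.2 and 27.6 in CS lungs and 37.2, 43 and 35.4 in air lungs, so that every CS array was below every IQOS and air array. The change was 0.38 ± 0.10 for IQOS against CS (adjusted p = 0.0467) and -0.33 ± 0.10 for CS against air, which was not called (adjusted p = 0.0667). The second probe of Gstm5, a gene named after its values were seen, was called higher in IQOS than in CS lungs (0.54, adjusted p = 0.0426), whereas its brighter probe was not (0.33, adjusted p = 0.138).

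Of the 5 tested theta, zeta and kappa GST genes, 4 had a change below 0 for CS against air, with no call. Theta enzymes act on small halogenated molecules, and Gstt3 had 5.56, 6.07 and 5.54 in IQOS lungs, 4.5, 4.16 and 3.27 in CS lungs and 5.13, 5.12 and 5.63 in air lungs. Its CS arrays were below all IQOS and air arrays, and IQOS exceeded CS by 0.54 ± 0.12 (adjusted p = 0.0305), with -0.42 ± 0.12 for CS against air (adjusted p = 0.0573). Gstz1, an enzyme of tyrosine breakdown, stood at -0.24 ± 0.09 for CS against air (adjusted p = 0.121). Gstk1, found in mitochondria and peroxisomes, stood at -0.12 ± 0.08 (adjusted p = 0.325), and neither passed the test. Of the 2 omega-class genes, which reduce dehydroascorbate, Gsto2 had the smaller p for CS against air, at 0.18 ± 0.10 (adjusted p = 0.284), and neither was called in any comparison.

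**Figure D2:**
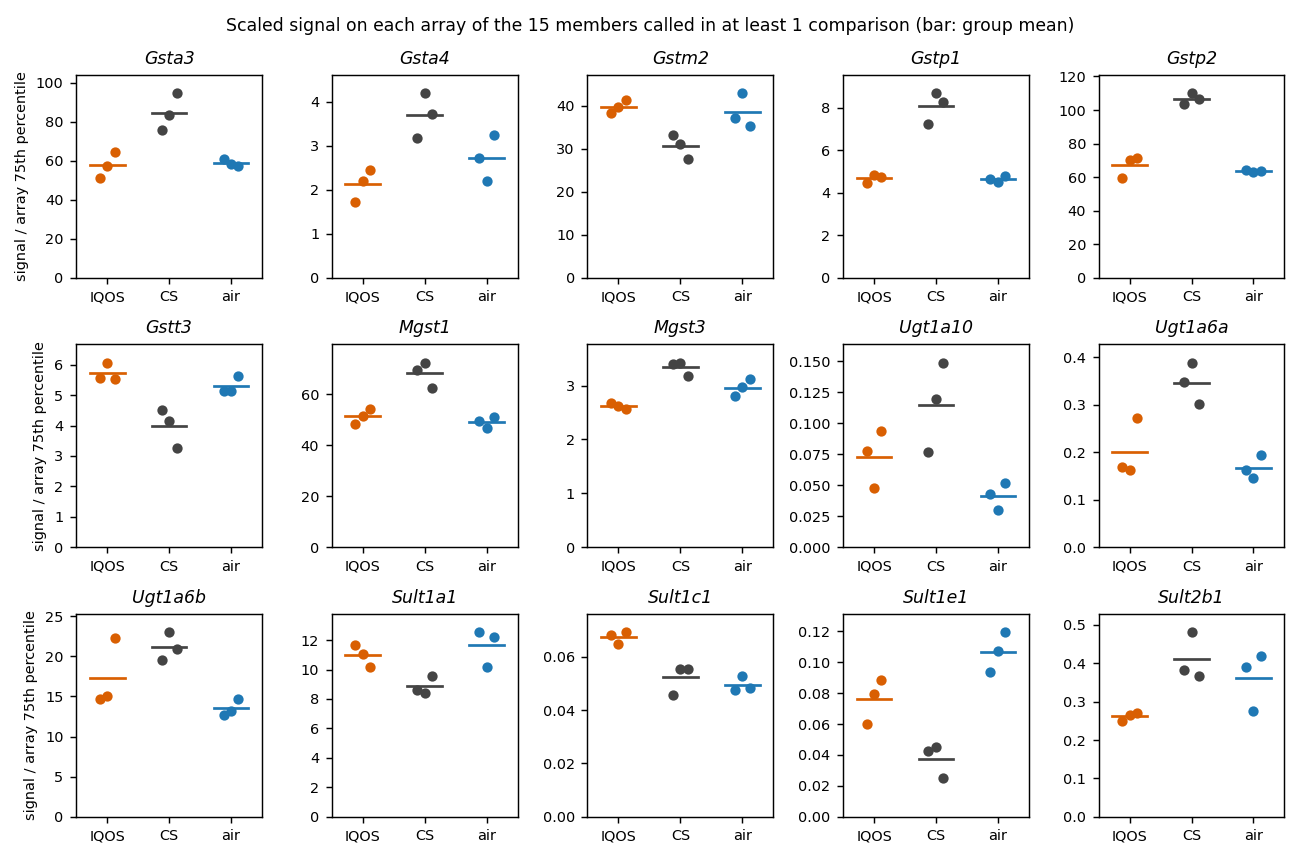
Scaled signal (multiples of the array's 75th percentile, linear axis from 0) on each IQOS, CS and air array for the 15 members called in at least 1 comparison; points are arrays and bars group means. The CS arrays stand above the other 6 for Gstp1, Gstp2, Gsta3, Mgst1, Mgst3 and Ugt1a6a and below them for Gstm2, Gstt3, Sult1a1 and Sult1e1. The members were chosen by calls on these same arrays, so such separation adds no support to the calls.

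Ugt1a10 and Ugt1a6a, both UGT1 genes, had the largest rises with CS among the tested members. The mouse Ugt1a genes share their downstream exons and differ in alternative upstream exons, and Ugt1a10 and Ugt1a6a have the same annotated end (chr1:88055411-88220002 and chr1:88134809-88220002). Without probe positions it was not tested whether these probes read one transcript or several. All 3 genes measured were higher in CS than in air lungs, and 0 of 3 were called for IQOS against air.

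Ugt1a6a, a form that glucuronidates small phenols, had 0.169, 0.163 and 0.271 in IQOS lungs, 0.347, 0.389 and 0.301 in CS lungs and 0.162, 0.146 and 0.195 in air lungs. CS arrays were above all IQOS and air arrays, and IQOS and air arrays overlapped. CS exceeded air by 1.05 ± 0.21 (2.07-fold, adjusted p = 0.0235), IQOS was at 0.23 ± 0.21 against air (interval -0.25 to 0.71, adjusted p = 0.549), and IQOS was lower than CS, at -0.81 ± 0.21 (adjusted p = 0.0479).

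Ugt1a6b, its close relative, had 14.7, 15 and 22.3 in IQOS lungs, 19.5, 23 and 20.9 in CS lungs and 12.7, 13.2 and 14.7 in air lungs. CS and air arrays did not overlap, while 1 of 3 IQOS arrays was within the CS range. The change was 0.65 ± 0.16 for CS against air (1.56-fold, adjusted p = 0.0435) and 0.33 ± 0.16 for IQOS against air (adjusted p = 0.271). Of 2 further Ugt1a6b probes, 1 was called for CS against air (0.71, adjusted p = 0.0475) and the other was not (0.44, adjusted p = 0.209).

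Ugt1a10 was dim, at 0.0774, 0.0475 and 0.0935 in IQOS lungs, 0.0764, 0.119 and 0.149 in CS lungs and 0.043, 0.0299 and 0.0521 in air lungs, although well above background on all 9 arrays. CS exceeded air without overlap, by 1.45 ± 0.33 (2.73-fold, adjusted p = 0.0363). IQOS lungs overlapped both groups, with 0.79 ± 0.33 against air (interval 0.01 to 1.56, adjusted p = 0.223) and -0.66 ± 0.33 against CS (adjusted p = 0.241).

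The other UGT families showed no call. Ugt2a1, a form known from olfactory epithelium, had 0.225, 0.232 and 0.223 in IQOS lungs, 0.216, 0.215 and 0.212 in CS lungs and 0.229, 0.233 and 0.225 in air lungs, and its groups differed by -0.09 ± 0.05 for CS against air (adjusted p = 0.251). Ugt3a2 was well above background on 3 IQOS, 0 CS and 2 air arrays, with 0.467, 0.0324 and 0.0367 in IQOS lungs, 0.0269, 0.0253 and 0.0286 in CS lungs and 0.0602, 0.0233 and 0.0327 in air lungs. A single IQOS array set its change for IQOS against air, which was 1.20 ± 0.93 (adjusted p = 0.49) and -0.053 without IQOS replicate 1. The remaining UGT genes, Ugt2a3, Ugt2b1, Ugt2b34, Ugt2b35, Ugt2b36, Ugt2b37, Ugt2b38, Ugt2b5, Ugt3a1 and the ceramide galactosyltransferase Ugt8a, were not well above background on every array of any group, and Ugt2b38 alone of them reached it on 1 array, an air array.

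Both SULT genes called for CS against air were lower in CS lungs. Sult1e1, the estrogen sulfotransferase, had 0.06, 0.0792 and 0.0885 in IQOS lungs, 0.0423, 0.0451 and 0.0254 in CS lungs and 0.0936, 0.107 and 0.12 in air lungs. CS arrays were the lowest, air arrays the highest and IQOS arrays lay between them, with no overlap between any 2 groups. The change was -1.54 ± 0.24 for CS against air (0.343 of the air level, adjusted p = 0.0114) and 1.04 ± 0.24 for IQOS against CS (2.06-fold, adjusted p = 0.0342). The change of -0.50 ± 0.24 for IQOS against air was not called (interval -1.05 to 0.04, adjusted p = 0.262). The gene was dim, and it was well above background on 2 of 3 CS arrays and on all IQOS and air arrays. The size of its changes is therefore uncertain. Over the settings tried it ran from -1.71 to -0.77 for CS against air and from 0.44 to 1.29 for IQOS against CS.

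Sult1a1, which sulfates simple phenols, had 11.7, 11 and 10.2 in IQOS lungs, 8.62, 8.42 and 9.54 in CS lungs and 12.5, 10.2 and 12.2 in air lungs. CS arrays were below all others, at -0.39 ± 0.10 against air (adjusted p = 0.0465), and a second probe gave -0.41 (adjusted p = 0.037). IQOS was at -0.08 ± 0.10 against air and 0.31 ± 0.10 against CS, neither called (adjusted p = 0.672 and 0.09).

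Sult1c1 was the member called for IQOS against air. It had 0.0681, 0.0647 and 0.0693 in IQOS lungs, 0.0458, 0.0554 and 0.0555 in CS lungs and 0.0475, 0.0528 and 0.0482 in air lungs, so that the IQOS arrays stood above the other 6. IQOS exceeded air by 0.45 ± 0.09 (1.36-fold, adjusted p = 0.0396) and CS by 0.37 ± 0.09 (adjusted p = 0.0406), while CS and air overlapped (0.07 ± 0.09, adjusted p = 0.625). These signals were dim, beside a lowest signal well above background of 0.0198 to 0.0282 on these arrays. Sult1d1, a catecholamine sulfotransferase of mice named after its values were seen, had 0.647, 1.02 and 1.25 in IQOS lungs, 0.431, 0.683 and 0.293 in CS lungs and 0.285, 0.774 and 0.539 in air lungs, and its 0.93 ± 0.44 for IQOS against air was not called (adjusted p = 0.265).

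Sult2b1, which sulfates cholesterol and other sterols, had 0.248, 0.266 and 0.271 in IQOS lungs, 0.384, 0.481 and 0.367 in CS lungs and 0.39, 0.277 and 0.419 in air lungs. IQOS arrays were below all CS and air arrays, and the change was called against CS (-0.64 ± 0.17, adjusted p = 0.0499) but not against air (-0.45 ± 0.17, adjusted p = 0.171). Sult5a1 stood at 0.17 ± 0.15 for CS and 0.28 ± 0.15 for IQOS against air, neither called (adjusted p = 0.491 and 0.305), and its second probe gave -0.78 for IQOS against air (adjusted p = 0.496). The liver-type hydroxysteroid forms Sult2a1, Sult2a2, Sult2a3, Sult2a4, Sult2a5, Sult2a6 and Sult2a7, together with Sult1b1, Sult1c2, Sult3a1, Sult3a2, Sult6b1 and Sult6b2, were not tested for lack of signal, as was the GST gene Gstt4. Of these, a Sult2a1 and a Sult2a6 probe were well above background on 1 IQOS array each and the rest on 0 of 9 arrays.

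How far each call rested on 1 array differed between members. The calls of Gstp1 and Gstp2, for CS against air and for IQOS against CS, were kept with any of the 9 arrays left out, as was that of Sult1e1 for CS against air. The CS against air call of Mgst1 was lost without air replicate 1 or CS replicate 2 (adjusted p up to 0.0572), that of Gsta3 without any 1 air replicate, CS replicate 2 or CS replicate 3 (up to 0.0802), and that of Ugt1a6a without air replicate 1 or 2 or CS replicate 1 or 2 (up to 0.0829). Ugt1a10 lost it without any 1 air replicate, CS replicate 2 or 3, or IQOS replicate 1 (up to 0.107). Ugt1a6b kept it only without IQOS replicate 1 or 3 (up to 0.136), and Sult1a1 only without air replicate 2 (up to 0.149).

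Among the other calls of IQOS against CS, Mgst3 lost its call without CS replicate 2 or IQOS replicate 2 (up to 0.0623), Mgst1 without these or IQOS replicate 1 (up to 0.0717), and Gsta3 without CS replicate 2 or 3 or IQOS replicate 1 or 2 (up to 0.0653). Gsta4 lost it without these 4 or air replicate 1 (up to 0.107), and Gstt3 without air replicate 1, CS replicate 2 or any 1 IQOS replicate (up to 0.0921). Gstm2 kept it only without air replicate 2 or CS replicate 1, and Sult1e1 only without CS replicate 1 or IQOS replicate 1 (up to 0.12 and 0.0963). The calls of Sult2b1, Sult1c1 and Ugt1a6a for IQOS against CS, and of Sult1c1 for IQOS against air, each survived the removal of 1 array only, namely air replicate 2 for Sult2b1 and Sult1c1 against CS, IQOS replicate 3 for Ugt1a6a and CS replicate 1 for Sult1c1 against air, with adjusted p up to 0.141, 0.104, 0.14 and 0.146. Array row on the slide also differed between groups: air replicate 3 shared its row with the CS arrays and the other air replicates theirs with the IQOS arrays. With row as a covariate, which sets CS against air replicate 3 and IQOS against air replicates 1 and 2, Gstp1 and Gstp2 kept their call for CS against air (adjusted p = 0.0465 and 0.0478), and 0 members were called for IQOS against CS or for IQOS against air.

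The genes that supply the cosubstrates were counted next. Beside the counts of this and all later lists stand the shares of all tested genes. These were 5.6% called higher and 6.12% lower for CS against air, and 1.99% and 0.886% for IQOS against air. For IQOS against CS the shares were 4.94% and 5.18%. Small counts in lists this short are not read as results about the lists. Of 14 genes for glutathione synthesis, transport and reduction, 3 were higher and 0 lower in CS than in air lungs (median 0.43), 0 were called for IQOS against air (median -0.03, with 5 at an unadjusted p under 0.05), and 0 were higher and 4 lower in IQOS than in CS lungs (median -0.52). Gclc and Gclm, the catalytic and modifier subunits of glutamate-cysteine ligase, were lower in IQOS than in CS lungs, at -1.69 ± 0.30 and -1.09 ± 0.22 (adjusted p = 0.0172 and 0.023). Gclc had 16.6, 29.9 and 31.2 in IQOS lungs, 64.3, 89.6 and 90.2 in CS lungs and 41.9, 47.2 and 25.9 in air lungs, with no overlap between IQOS and CS arrays, and its change of 1.11 ± 0.30 for CS against air was just short of a call (adjusted p = 0.0558). Gss, glutathione synthetase, was lower in IQOS than in CS lungs (-0.59 ± 0.14, adjusted p = 0.0389). G6pdx, the source of NADPH for glutathione reduction, was higher in CS than in air lungs (0.53 ± 0.12, adjusted p = 0.0352) and lower in IQOS than in CS lungs (-0.57 ± 0.12, adjusted p = 0.0281). The other 2 genes raised by CS were glutathione reductase Gsr (0.94 ± 0.22, adjusted p = 0.0402) and gamma-glutamyltransferase Ggt1 (0.86 ± 0.22, adjusted p = 0.0458), both named after their values were seen.

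For UDP-glucuronate, 2 of 7 genes were higher and 0 lower in CS than in air lungs (median 0.26), 0 were called for IQOS against air (median -0.08, with 1 at an unadjusted p under 0.05), and 2 were lower and 0 higher in IQOS than in CS lungs (median -0.17). The phosphoglucomutase Pgm1 had 9.1, 9.73 and 9.46 in IQOS lungs, 13.1, 14.4 and 13.4 in CS lungs and 9.73, 9.48 and 10.6 in air lungs, with 0.46 ± 0.07 for CS against air (adjusted p = 0.0113) and -0.53 ± 0.07 for IQOS against CS (adjusted p = 0.00608). Its CS arrays were above all IQOS and air arrays. Pgm2, with values on 2 of 3 CS arrays, was also higher in CS than in air lungs (0.32 ± 0.07, adjusted p = 0.039). Ugdh, which oxidises UDP-glucose to UDP-glucuronate, was lower in IQOS than in CS lungs (-0.39 ± 0.10, adjusted p = 0.0459).

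For PAPS, 1 of 7 tested genes was higher and 1 lower in CS than in air lungs (median -0.10), 0 were called for IQOS against air (2 at an unadjusted p under 0.05), and 1 was higher in IQOS than in CS lungs. Papss1, a PAPS synthase, was lower in CS than in air lungs (-0.24 ± 0.06, adjusted p = 0.0381), while the sulfate transporter Slc26a2 was higher (0.52 ± 0.13, adjusted p = 0.0474). Another sulfate transporter, Slc26a1, was higher in IQOS than in CS lungs (0.81 ± 0.16, adjusted p = 0.0217).

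**Figure D3:**
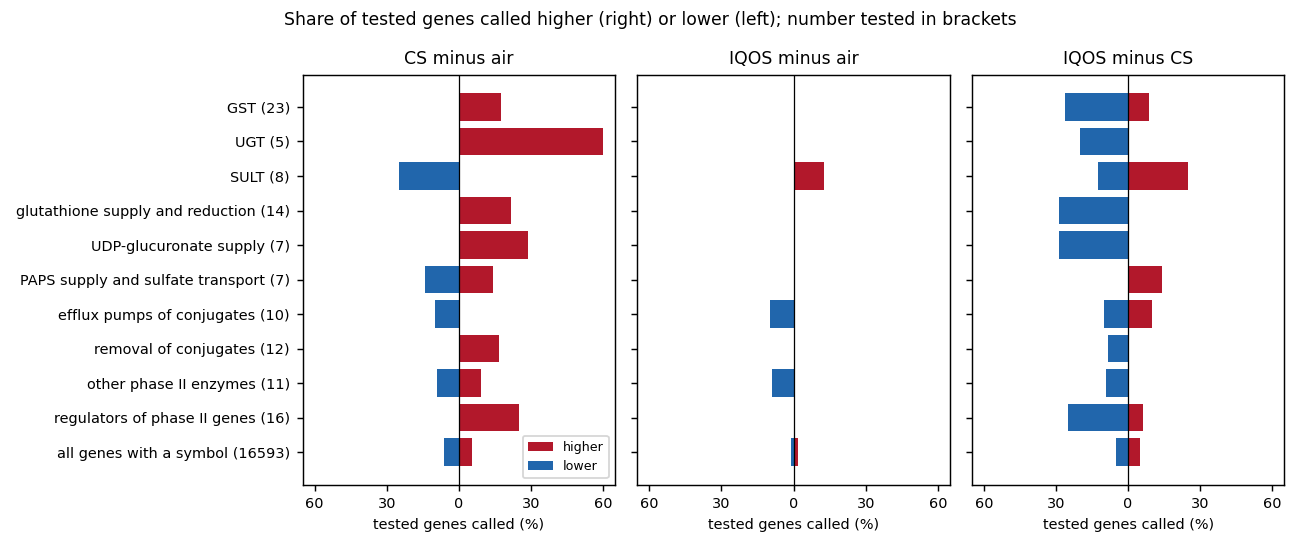
Percent of tested genes called higher (bars to the right of 0) or lower (bars to the left) for CS against air, IQOS against air and IQOS against CS, for the 3 enzyme classes, 7 lists of related genes and all 16593 tested genes; the number tested is in brackets. Of UGT genes 3 of 5 were higher with CS against air, and of SULT genes 2 of 8 were lower.

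After conjugation the products leave the cell through efflux pumps and are broken down further. Of 10 tested pumps, 1 was lower with CS against air, 1 lower with IQOS against air, and 1 higher and 1 lower with IQOS against CS. Abcc1, which exports glutathione and glucuronide conjugates, had 0.566, 0.614 and 0.71 in IQOS lungs, 0.865, 0.866 and 1.04 in CS lungs and 1.17, 0.932 and 1.05 in air lungs. IQOS arrays were below all CS and air arrays, at -0.74 ± 0.12 against air (adjusted p = 0.0237) and -0.55 ± 0.12 against CS (adjusted p = 0.0319). Abcb1a, a broad drug exporter, was lower in CS than in air lungs (-0.40 ± 0.09, adjusted p = 0.0325) and higher in IQOS than in CS lungs (0.48 ± 0.09, adjusted p = 0.0187).

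Of 12 tested genes that process or remove conjugates, 2 were higher and 0 lower with CS against air, 0 were called with IQOS against air (3 at an unadjusted p under 0.05), and 1 was lower with IQOS against CS. Dpep2, a dipeptidase, rose with CS (0.59 ± 0.07, adjusted p = 0.00488) and was lower in IQOS than in CS lungs (-0.44 ± 0.07, adjusted p = 0.00944). The arylsulfatase Arsg rose with CS (0.85 ± 0.14, adjusted p = 0.0136).

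Of 11 tested phase II enzymes outside these classes, 1 was higher and 1 lower with CS against air, 1 was lower with IQOS against air and 1 was lower with IQOS against CS. Nqo1, a quinone reductase often read as a marker of NRF2 activity, had 0.235, 0.266 and 0.71 in IQOS lungs, 1.76, 2.38 and 2.75 in CS lungs and 0.408, 0.285 and 0.48 in air lungs. All CS arrays exceeded the other 6, with 2.56 ± 0.41 for CS against air (adjusted p = 0.0135) and -2.67 ± 0.41 for IQOS against CS (adjusted p = 0.0108). The methyltransferase Nnmt was lower than air in both exposures (-0.43 ± 0.09 for IQOS, adjusted p = 0.0383, and -0.34 ± 0.09 for CS, adjusted p = 0.0453). The comparisons of CS and of IQOS with air share the same 3 air arrays.

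Of 16 tested regulators of phase II genes, 4 were higher and 0 lower with CS against air (median 0.15), 0 were called with IQOS against air (median 0.07, with 4 at an unadjusted p under 0.05), and 1 was higher and 4 lower with IQOS against CS (median -0.19). Nfe2l2, the gene of NRF2, had 13.4, 17 and 12.6 in IQOS lungs, 27.1, 25.1 and 24.5 in CS lungs and 13.1, 15.3 and 12 in air lungs. CS arrays were above the other 6, with 0.93 ± 0.13 for CS against air (adjusted p = 0.00882) and -0.84 ± 0.13 for IQOS against CS (adjusted p = 0.0106). Maff, a small MAF protein that pairs with NRF2, rose with CS (1.64 ± 0.31, adjusted p = 0.0195). Keap1, which holds NRF2 in the cytoplasm, was lower in IQOS than in CS lungs (-0.32 ± 0.07, adjusted p = 0.027), and Nr1i3, the nuclear receptor CAR, was higher (0.76 ± 0.16, adjusted p = 0.027), both named after their values were seen.

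Ahrr, the repressor that AHR itself induces, was not well above background on any air array and was at least 38.9-fold higher in CS lungs (adjusted p = 0.00055), where the bound sets the CS mean against the background limit of the air arrays. Its CS arrays read 1.17, 1.16 and 0.67. Ahrr was also called lower in IQOS than in CS lungs, at -5.63. The size of that change is uncertain, as it ran from -5.96 to -3.60 over the settings tried. Hnf4a, a nuclear receptor of liver and gut that also controls UGT genes, was higher in CS than in air lungs (3.34 ± 0.53, adjusted p = 0.0129) and lower in IQOS than in CS lungs (-4.30 ± 0.53, adjusted p = 0.00507). Its signals were 0.0125, 0.0328 and 0.0464 in IQOS lungs, 0.388, 0.633 and 0.587 in CS lungs and 0.0299, 0.0855 and 0.0545 in air lungs, well above background on 2 IQOS, 3 CS and 2 air arrays. Hnf4a was thus tested only because of its CS arrays. IQOS replicate 1 lay under the lowest signal well above background on that array, 0.0257. The size of its changes is therefore uncertain. Over the settings tried it ran from 2.18 to 3.70 for CS against air and from -4.69 to -2.44 for IQOS against CS.

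Among the calls of these lists, those of Ahrr, Hnf4a, Nfe2l2 and Dpep2 for CS against air and IQOS against CS, and of Nqo1 and Pgm1 for IQOS against CS, were kept with any 1 array left out. With array row as a covariate, of these calls those of Ahrr were kept and the others were lost (adjusted p = 0.0528 to 0.37). For CS against air, Nqo1, Pgm1 and Arsg lost theirs without air replicate 1 (adjusted p = 0.0525, 0.0525 and 0.0576). The calls of the remaining genes of these lists were each lost on leaving out at least 1 array, with the highest adjusted p at 0.15, for Slc26a2.

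Markers of other cell types were measured on the same arrays. Of 5 fibroblast markers 2 were lower in CS than in air lungs and 1, Col1a1, was higher in IQOS than in CS lungs (0.61 ± 0.15, adjusted p = 0.0399), with sums of 105 to 117 in IQOS lungs, 76.2 to 99.8 in CS lungs and 116 to 130.5 in air lungs. Of 7 club cell markers, the airway cells in which GSTs are abundant, 1 (Hp) was called higher and 4 had an unadjusted p under 0.05 for CS against air, where 7 of 7 had a change above 0. Hp was higher in CS than in air lungs (0.31 ± 0.06, adjusted p = 0.0237) and lower in IQOS than in CS lungs (-0.26 ± 0.06, adjusted p = 0.0426), with summed club cell signals of 1855 to 2159 in IQOS lungs, 2019.9 to 2286 in CS lungs and 1755 to 1827 in air lungs. Neutrophil marker sums were 173 to 424 in IQOS lungs, 328 to 726 in CS lungs and 182 to 228 in air lungs, with 0 of 5 called in any comparison by limma, although 4 had an unadjusted p under 0.05 for CS against air. Of 5 ciliated and 5 alveolar type II markers 0 were called in any comparison, with 1 and 2 at an unadjusted p under 0.05 for CS against air. Of 5 hepatocyte markers 2 were tested, Alb and Serpina1a, and 0 were called in any comparison (0 at an unadjusted p under 0.05), while Apoa1 and Ttr were not well above background on any array. The summed signal of Alb and Serpina1a was 0.0998 to 0.144 in IQOS lungs, 0.13 to 0.16 in CS lungs and 0.0975 to 1.44 in air lungs, where air replicate 3 stood apart at 1.44 and the other 2 air arrays were at 0.0975 and 0.146. The part of these cell types, too, was not tested.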

How the data were processed

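RNA was isolated from whole lung with miRNeasy kits, and 100 ng per sample was turned into Cy3-labelled cRNA, per the labels. Spot intensities were produced by the authors with Feature Extraction 10.7.1.1 of Agilent; per the file headers they are corrected for background and for spatial trend but not normalized between arrays. Per the file headers, the authors' flags on each spot mark outliers, saturation and signal well above background. The deposited series matrix is a linear ratio to each array's 75th percentile for 56745 probes (column medians 0.115 to 0.122). No label states this scale, which was worked out from the scanner values, with neither logs nor centring by probe.

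Outlier spots were dropped, log2 signals were averaged per probe over the 59305 non-control spots, and each array was divided by its 75th percentile, giving 56605 probes. Testing required values on 2 or more arrays of each group and a group whose arrays were all well above background, which 37258 probes met. Accession matches to RefSeq (GRCm38.p6) named 32994 probes (58.3%). Because gene name and mean signal columns were not in the files used here, names rest on that match and the normexp alternative on median signals. The brightest tested probe represented a gene. RefSeq lists 70 member genes. Those with no matched probe, 10 in number, are not analysed here: Gsta1, Gstm2-ps1, Sult2a-ps2, Ugt1a1, Ugt1a2, Ugt1a5, Ugt1a7c, Ugt1a8, Ugt1a9 and Ugt2a2. A fold against a group with no array well above background was bounded by the lowest signal that was.

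Groups follow the labels. One model over all 9 arrays was fitted with lmFit and eBayes of limma 3.58.1 in R 4.3.3, with Benjamini-Hochberg adjustment over all tested probes. Array number and signal over background limit the precision. Each array had a correlation of 0.993 to 0.994 with its closest neighbour, and 0 pairs were identical. In simulated data of 37258 probes, changes of 1.5-fold, 2-fold and 4-fold were recovered at 46.3%, 62.7% and 90.9% for CS against air with 9 false calls. The shares were 40.3%, 74.6% and 90.9% for IQOS against air with 12 false calls, and 52.2%, 76.1% and 93.9% for IQOS against CS with 13.

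By rule, the text names each member called in some comparison and, for a family with none, its smallest p for CS against air (21 genes), plus at most 4 called genes of each other list with the smallest p. Names outside the rule are marked as such. Of the other lists Slc35b2, Abcc2, Sts, Nat1, Glyat, Apoa1, Ttr and Fgb were not tested, and 2 further genes are not reported here. Members and lists were chosen with earlier results of these data known. Tried as alternatives were normexp correction with an offset of 50, quantile normalization, centring on the median, testing all probes, testing only probes above background on every array, the deposited ratios, a robust fit with an intensity trend, a replicate block, a term for array row, averaging a gene's probes, fitting only the 2 groups compared, and leaving out each array. Deviations of same-numbered arrays from their group means correlated at -0.08 to 0.20, and the labels tie no number to a shared origin. Motifs were counted in RefSeq promoter windows with Python 3.11.15.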

Additional observations from a re-analysis of the deposited data

How the results depend on the processing

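The direction of every member call, as named above, was kept under all settings run, while the sizes and the count of called members moved. The change of Sult1e1 ran from -1.71 to -0.77 for CS against air and from 0.44 to 1.29 for IQOS against CS. That of Ugt1a10 ran from 0.73 to 1.72 for CS against air, and that of Sult1c1 from 0.085 to 0.42 for IQOS against CS. Gstp1 stayed between 0.74 and 0.87 for CS against air. For CS against air, 7 members higher and 2 lower became 2 and 0 with array row as a covariate, 3 and 1 without the filter on dim probes, 7 and 1 with the filter on all arrays or with only the CS and air arrays, which share a slide, 7 and 4 with an intensity trend and robust eBayes, and 7 and 1 with the replicate number as a block; 6 and 3 resulted from quantile normalization and from the mean of all probes. For IQOS against air, 1 higher became 0 under normexp, quantile normalization, median centring, no filter, the intensity trend, the block, array row, the mean of all probes and only the arrays compared. For IQOS against CS, 4 higher and 8 lower became 0 and 5 without the filter or with the replicate block, 0 and 4 with only the arrays compared, 0 and 0 with array row, and 2 and 8 with median centring. The replicate numbers do not pair the samples by the check of their correlations. Leaving out 1 array gave 2 to 7 members higher and 1 to 2 lower for CS against air, 0 to 1 higher and 0 to 0 lower for IQOS against air, and 0 to 3 higher and 2 to 8 lower for IQOS against CS.

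The following uncalled values changed sign. Against air, IQOS gave -0.012 for Gstk1 and -0.032 for Gstp1 under normexp, -0.023 for Gstp1 under median centring, -0.0083 for Gstm2 with array row, and -0.25 for Sult5a1 with the mean of its probes, which also gave -0.45 for IQOS against CS. With array row, CS against air gave -0.47 for Gsta2 and -0.041 for Sult2b1. With 1 array left out, IQOS against air ranged from -0.012 to 0.043 for Gstp1, -0.12 to 0.046 for Gsta3, -0.0083 to 0.13 for Gstm2, -0.0015 to 0.37 for Ugt1a6a and -0.053 to 1.87 for Ugt3a2, CS against air from -0.36 to 0.41 for Gsta2 and -0.55 to 0.17 for Sult1d1, and IQOS against CS from -0.051 to 0.22 for Sult5a1. The cause of these changes was not tested. Over all probes, the median change moved by at most 0.0582 between settings. Signals near background, as for Sult1e1, Sult1c1, Ugt1a10 and Ugt3a2, have the least support.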
